A study of Homo sapiens with 6 samples.

Results

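The Notch receptors, their ligands and the HES and HEY transcription factors were examined in Rh30 cells, a patient-derived fusion-positive rhabdomyosarcoma (FP-RMS) line that carries the PAX3-FOXO1 oncofusion. The 10 genes were taken by symbol from the expression table (NOTCH1, NOTCH2 and NOTCH3 among the receptors, JAG1, JAG2 and DLL1 among the ligands, HES1, HES6, HEY1 and HEYL among the transcription factors), and all 10 were found among its 35268 named genes. Messenger RNA of Rh30 cells was sequenced after 24 hours in either DMSO, the vehicle, or 1 µM YK-4-279 dissolved in DMSO, with 3 libraries per group. YK-4-279 is a small molecule developed against the EWS-FLI1 fusion protein and known to interfere with ETS family transcription factors, and the study asked how it alters gene expression in FP-RMS cells. All libraries came from 1 established line at 1 dose and 1 time. The labels number the replicates but do not say whether they were separate cultures, so every p-value measures only the spread between these libraries.

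Notch receptors sit in the cell membrane and are activated by Jagged and Delta-like ligands on neighbouring cells. Ligand binding allows ADAM proteases and then the γ-secretase complex to cut the receptor, and the freed intracellular domain enters the nucleus, joins the DNA-binding protein RBPJ and Mastermind coactivators, and switches on target genes. HES1, HEY1 and HEYL are textbook targets and encode basic helix-loop-helix repressors, while HES6 lacks much of their repressor activity and can oppose HES1. In skeletal muscle precursors, active Notch holds back differentiation, and HES and HEY proteins can repress MYOD1 and MYOG, the factors that drive it.

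HEYL, which fell after the drug, and HES1, the prototype Notch target, are shown with the 250 bases upstream of their start sites, because both stretches contain the letters TGGGAA, the core of the motif that RBPJ binds. Sequences are from RefSeq (GRCh38.p14), 5′ to 3′ on the strand of the gene, and capitals mark TGGGAA or its reverse complement TTCCCA.

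HES1 (chr3:194135898-194136147, + strand): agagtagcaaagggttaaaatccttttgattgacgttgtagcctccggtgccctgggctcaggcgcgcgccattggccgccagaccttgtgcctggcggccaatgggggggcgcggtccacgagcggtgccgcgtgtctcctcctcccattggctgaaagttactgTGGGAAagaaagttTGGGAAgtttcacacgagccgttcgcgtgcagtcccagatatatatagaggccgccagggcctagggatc

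HEYL (chr1:39639644-39639893, - strand): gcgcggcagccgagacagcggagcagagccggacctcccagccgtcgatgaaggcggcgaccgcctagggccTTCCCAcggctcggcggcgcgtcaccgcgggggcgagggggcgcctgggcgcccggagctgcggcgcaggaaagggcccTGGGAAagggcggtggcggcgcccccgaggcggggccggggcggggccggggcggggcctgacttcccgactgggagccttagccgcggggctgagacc

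In HES1 both cores lay on the strand of the gene, at positions -84 and -70 relative to the start site. In HEYL one core was on the opposite strand at position -178, and the other on the strand of the gene at position -99. Promoter windows of 300 bases (250 before to 50 after the start) were at hand for 8 of the 10 genes, NOTCH1, NOTCH2, NOTCH3, JAG1, JAG2, HES1, HES6 and HEYL. Searched on both strands, TGGGAA occurred in 2 of these 8 windows (HES1 and HEYL), against 24.0% of 35116 promoters. CCGGAA, a core that ETS factors bind, occurred in 1 of the 8 (HES6), against 17.2% of promoters. CACNAG, the N-box that HES proteins bind, occurred in 4 of the 8 (NOTCH1, NOTCH2, NOTCH3 and HES1), against 38.0%, and the HES1 window held 4 matches to it. These are matches of letters and do not say that a factor binds there.

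Values are normalized counts, that is, the reads of a gene divided by a scaling factor of the library. The libraries held 16724650 to 24677433 reads on named genes. DMSO replicate 1 was the shallowest and stood apart from the other 5. Its mean correlation with the other libraries was 0.989, against at least 0.992 for the rest, and mitochondrial genes took 6.05% of its reads, against 4.74% to 5.03% elsewhere. Its part in the results was not tested beyond leaving it out, and the values without it are given for each of the 10 genes. The muscle lineage markers MYOD1 (37118 ± 2368 normalized counts in DMSO, SD, n = 3) and MYOG (13810 ± 2368) were abundant in the line, while MYF5 was at or near 0. The 6 muscle markers summed to between 70572 and 83564 with DMSO and between 78067 and 81649 with YK-4-279. The summed levels of 5 markers each were 0 to 5.0 for blood, 130 to 177 for epithelium, 221 to 318 for endothelium and 693 to 833 for fibroblasts and pericytes over all libraries, and no marker in these lists passed the test over all 6 libraries. The fibroblast and pericyte sum was 693.0 to 820.8 with DMSO and 821.4 to 833.5 with YK-4-279, without overlap. Of the 5 muscle markers tested, MYOG (log2 difference 0.23, limma adjusted p = 0.224) and DES (0.14, adjusted p = 0.255) had higher values with YK-4-279 without overlap, while MYOD1 (-0.0082), CHRNA1 (-0.02) and CDH15 (-0.03) overlapped. When DMSO replicate 1 was left out, MYOG and DES were both at 0.08 (adjusted p = 0.196 and 0.192). Of the other markers, the endothelial TEK (-0.38, adjusted p = 0.128) was lower, and the endothelial KDR (0.71, adjusted p = 0.332) and the pericyte marker RGS5, which was under the filter on low values, were higher without overlap. Without DMSO replicate 1, the fibroblast marker PDGFRA (0.42, adjusted p = 2.7e-04) and the muscle marker CDH15 (-0.14, adjusted p = 0.0105) passed the test. The part of these markers in the results on Notch genes was not tested.

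With YK-4-279, the mRNA of 1 receptor, NOTCH3, fell by 16.4%, and that of 1 transcription factor, HEYL, fell by 15.6%. In bulk RNA, less RNA per cell and fewer expressing cells cannot be told apart. The other 8 genes did not pass the test (limma on log2(normalized count + 1), Benjamini-Hochberg adjusted p under 0.05 over all 13930 genes tested). The share of members called was 2 of 10, both lower, where 3.41% of all genes tested were called in either direction and 2.15% as lower. The DMSO and YK-4-279 libraries did not overlap for 5 of the 10 members (NOTCH1, NOTCH3, JAG2 and HEYL lower, NOTCH2 higher), where 26% of all genes tested showed no overlap. The median log2 change over the 10 members was -0.12, and over all genes it was -0.0075. The calls changed when single libraries were left out. Without DMSO replicate 1, 6 of the 10 members were called (NOTCH1, NOTCH3, JAG2, DLL1 and HEYL lower, NOTCH2 higher), where 13.1% of all genes were called. Without any one of the other 5 libraries, limma called 0 members, with 3 or 4 members at an unadjusted p under 0.05 in each of these fits. Of all genes, 0.137% to 4.92% were called in them and 11.7% to 22.1% had an unadjusted p under 0.05. Over all 6 such fits the log2 change was -0.31 to -0.21 for NOTCH3 and -0.26 to -0.22 for HEYL, so the sizes of both held while the adjusted p did not.

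**Figure D1:**
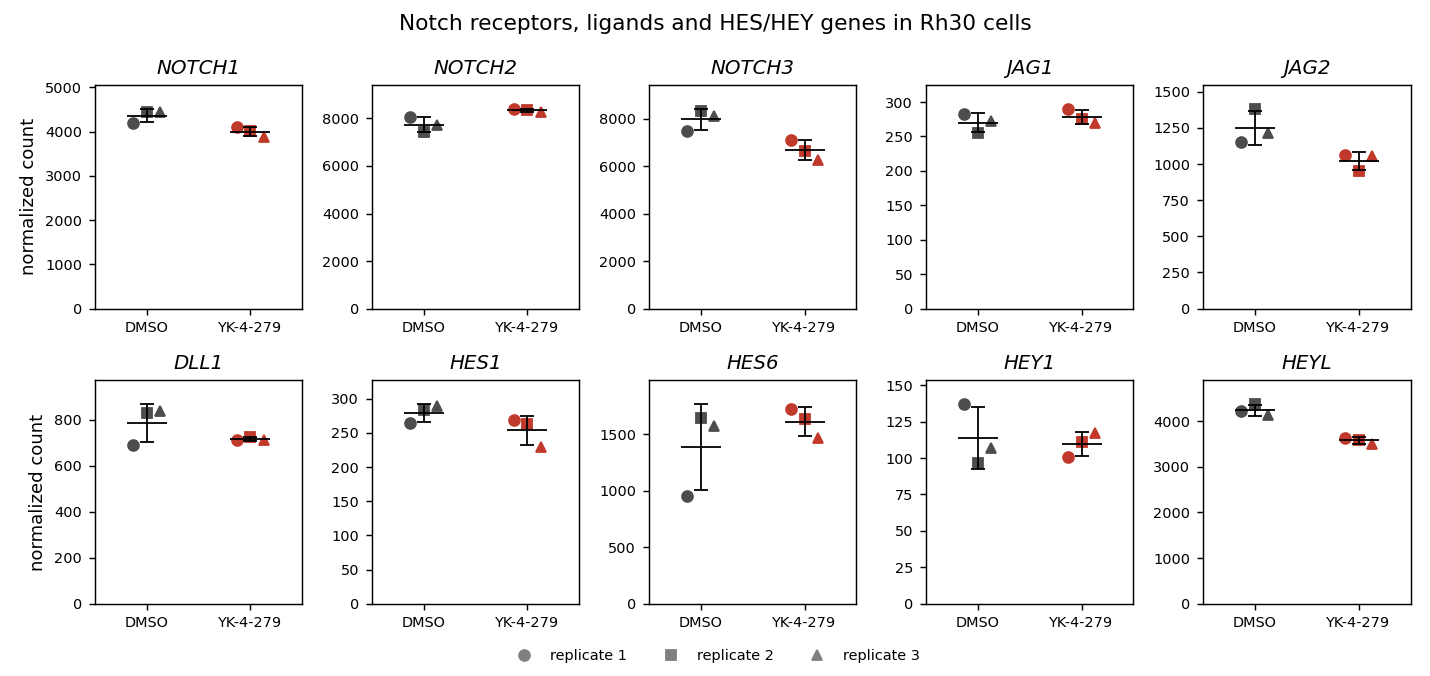
Normalized counts of the 10 genes in each library, with DMSO in grey and YK-4-279 in red. Each marker is 1 library, the horizontal bar is the group mean, the error bar is the SD of 3 libraries, and each vertical axis starts at 0. HEYL, NOTCH3, NOTCH1 and JAG2 have all YK-4-279 markers below all DMSO markers, NOTCH2 has them above, and for HES6 the DMSO replicate 1 marker lies far below the other 5.

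Among the receptors, NOTCH3 moved most. NOTCH3 (chr19:15159038-15200995, hg38), a receptor best known from vascular smooth muscle, had 7486, 8317 and 8128 normalized counts in DMSO replicates 1, 2 and 3, and 7105, 6636 and 6267 in YK-4-279 replicates 1, 2 and 3. The lowest DMSO library, replicate 1, stood above the highest YK-4-279 library, and the groups did not overlap. The mean fell from 7977 ± 436 to 6670 ± 420 (SD, n = 3), a log2 change of -0.26 (SE 0.06, 95% interval -0.40 to -0.12, limma adjusted p = 0.0416). The change was -0.30 without DMSO replicate 1 (adjusted p = 4.2e-07). Over all settings tried the log2 change ranged from -0.34 to -0.20 and the adjusted p from 4.2e-07 to 0.235. Run on the reads recovered from the table, DESeq2 gave an adjusted p of 0.0109 and edgeR 0.0585, so that the call was lost with edgeR. It was also lost with the replicate number as a block (adjusted p = 0.0971).

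NOTCH1 (chr9:136494433-136546048), the receptor most often mutated in leukaemia, had 4184, 4450 and 4448 normalized counts with DMSO and 4103, 4022 and 3883 with YK-4-279. The groups did not overlap, but the highest YK-4-279 library was close to DMSO replicate 1. The means were 4360 ± 153 and 4002 ± 111 (SD, n = 3), a log2 difference of -0.12 (SE 0.06, 95% interval -0.24 to -0.0021), which did not pass the test (limma adjusted p = 0.261). Without DMSO replicate 1 the difference was -0.15 with an adjusted p of 0.00721.

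NOTCH2 (chr1:119911553-120100779) was the only one of the 3 member receptors with higher values after the drug. Its normalized counts were 8043, 7416 and 7739 with DMSO and 8401, 8345 and 8274 with YK-4-279, again without overlap. The drug-treated libraries lay close together, at a mean of 8340 ± 63.5 against 7733 ± 313 (SD, n = 3). The log2 difference of 0.11 (SE 0.05, 95% interval -0.0062 to 0.23) did not pass the test (limma adjusted p = 0.294), and without DMSO replicate 1 it was 0.14 with an adjusted p of 0.0113. NOTCH4, a receptor on the list of other pathway genes, had a log2 difference of 0.14 with overlapping groups (limma adjusted p = 0.701). NOTCH2 has near-identical partial copies, the NOTCH2NL genes, and reads from shared stretches can be assigned to a copy or go uncounted. The summed normalized counts of the copies were 31.5 to 53.0 per library, or 0.378% to 0.714% of those of NOTCH2 (copies looked up after the values were seen). These sums do not say how many reads went uncounted.

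None of the 3 ligands passed the test over all 6 libraries, with 1 of them, JAG2, at an unadjusted p under 0.05 (18.7% of all genes were). JAG2 (chr14:105140982-105168824), a Jagged ligand, had 1155, 1382 and 1213 normalized counts with DMSO and 1062, 951 and 1053 with YK-4-279. All drug-treated libraries were below all DMSO libraries. The mean was 1250 ± 118 with DMSO and 1022 ± 61.5 with YK-4-279 (SD, n = 3), a difference of -18.3%, the largest of the 10 in percent. The log2 difference was -0.29 (SE 0.08, 95% interval -0.46 to -0.12), with an adjusted p of 0.0672 by limma, 0.0859 by edgeR and 0.0435 by DESeq2. Without DMSO replicate 1 it was -0.34 with a limma adjusted p of 2.1e-05. JAG2 shares 469 exonic bases with an unnamed gene on the same strand, so its counts carry that uncertainty.

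DLL1 (chr6:170282206-170306565), a Delta-like ligand, had 688, 828 and 837 normalized counts with DMSO and 712, 726 and 712 with YK-4-279. Its groups overlapped because DMSO replicate 1 lay below all 3 drug-treated libraries. The means were 784 ± 83.3 and 717 ± 7.89 (SD, n = 3), a log2 difference of -0.12 (SE 0.08, limma adjusted p = 0.457). Without DMSO replicate 1 the difference was -0.22 and passed the test (adjusted p = 0.0128). DLL1 shares 370 exonic bases with FAM120B on the opposite strand. The libraries were stranded, but the strand setting of the counting is not given in the sources used here.

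JAG1 (chr20:10637684-10673999), the Jagged ligand mutated in Alagille syndrome, had 282, 255 and 273 normalized counts with DMSO and 290, 275 and 270 with YK-4-279. The groups overlapped, at means of 270 ± 14.0 and 278 ± 10.2 (SD, n = 3). The log2 difference of 0.04 (SE 0.10, limma adjusted p = 0.847) had a 95% interval from -0.16 to 0.25. It was 0.08 without DMSO replicate 1 (adjusted p = 0.693). JAG1 shares 306 exonic bases with an unnamed gene on the opposite strand.

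HEYL (chr1:39623435-39639643) was the transcription factor gene that fell. Its normalized counts were 4213, 4372 and 4125 with DMSO and 3637, 3596 and 3499 with YK-4-279. The gap between the groups was wider than the spread within either. The mean fell from 4236 ± 125 to 3577 ± 71.2 (SD, n = 3), a log2 change of -0.24 (SE 0.06, 95% interval -0.36 to -0.12, limma adjusted p = 0.0300). The adjusted p was 0.0388 with edgeR and 0.00534 with DESeq2. The change without DMSO replicate 1 was -0.25 (limma adjusted p = 1.9e-05), and over all settings the adjusted p ranged from 1.9e-05 to 0.179. With the replicate number as a block the call was lost (adjusted p = 0.0903).

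HES1 (chr3:194136148-194138732) had 264, 284 and 289 normalized counts with DMSO and 269, 263 and 229 with YK-4-279. The groups overlapped through YK-4-279 replicate 1, which was above DMSO replicate 1. The means were 279 ± 13.4 and 254 ± 21.5 (SD, n = 3), a log2 difference of -0.14 (SE 0.10, 95% interval -0.36 to 0.08, limma adjusted p = 0.50). The difference was -0.18 without DMSO replicate 1 (adjusted p = 0.282).

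HES6 (chr2:238238267-238240662), a factor expressed in developing muscle and nerve, had 952, 1641 and 1568 normalized counts with DMSO and 1724, 1638 and 1470 with YK-4-279. DMSO replicate 1 alone was low. The means of 1387 ± 378 and 1610 ± 129 (SD, n = 3) gave a log2 difference of 0.25 (SE 0.15, limma adjusted p = 0.402), the highest of the 10, and without DMSO replicate 1 it was 0.0026 (adjusted p = 0.983).

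HEY1, on chromosome 8, was the least counted of the 10, with 137, 96.9 and 107 normalized counts with DMSO and 101, 111 and 117 with YK-4-279. Here DMSO replicate 1 was the highest library. The means were 114 ± 21.1 and 110 ± 8.04 (SD, n = 3) and the log2 difference was -0.04 (SE 0.15, limma adjusted p = 0.924). It had the opposite sign, 0.10 (adjusted p = 0.739), without DMSO replicate 1 and 0.02 without YK-4-279 replicate 1, so no direction is given for HEY1.

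**Figure D2:**
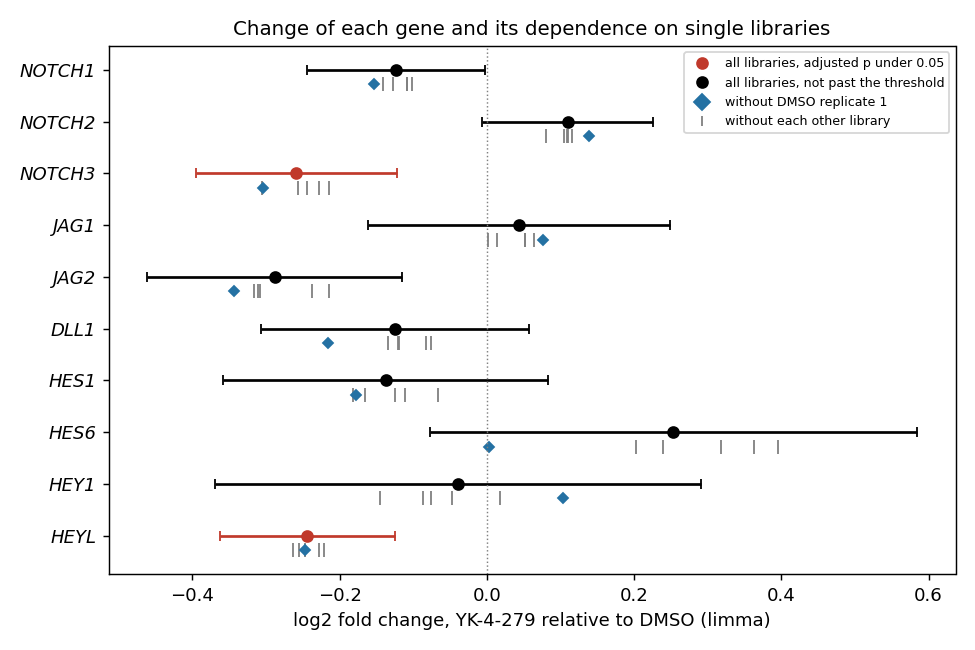
Log2 fold change of each gene with YK-4-279 relative to DMSO from limma, with the 95% confidence interval, in red where the adjusted p was under 0.05. Blue diamonds are the values without DMSO replicate 1 and grey ticks those without each other library in turn. The intervals of NOTCH3, HEYL, JAG2 and NOTCH1 lie below 0, and the diamond moves HES6 from 0.25 to 0.0026.

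Levels of different genes were compared as normalized counts per kilobase of the canonical transcript. In DMSO the order was HEYL (1039 ± 30.7, SD, n = 3), HES6 (1014 ± 277), NOTCH3 (919 ± 50.2), NOTCH2 (677 ± 27.4), NOTCH1 (456 ± 16.0), JAG2 (217 ± 20.4), DLL1 (208 ± 22), HES1 (177 ± 8.52), HEY1 (51.8 ± 9.61) and JAG1 (45.5 ± 2.36). The libraries overlapped between HEYL and HES6, HES6 and NOTCH3, JAG2 and DLL1, DLL1 and HES1, and HEY1 and JAG1, so these neighbours are not separated. HEYL was thus far above HES1, the better known target, in every library, and each of the 3 receptors was above each of the 3 ligands. With YK-4-279 the level per kilobase was 1177 ± 94.5 for HES6 and 877 ± 17.5 for HEYL. HES6 was above HEYL in every library except DMSO replicate 1, where HES6 alone was low. JAG2 was at 177 ± 10.7 and DLL1 at 190 ± 2.09. NOTCH3 (768 ± 48.4) and NOTCH2 (730 ± 5.56), apart in DMSO, overlapped after the drug.

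The make-up of each class was described as the share of its summed level per kilobase. Each class held only those of the 10 genes that belong to it. DLL3 (42.3 per kilobase with DMSO and 56.0 with YK-4-279) and DLL4 (8.11 and 10.1) were higher without overlap and are not in the ligand sum. A ligand sum with these genes added was not computed. HES4 (507 ± 78.3 and 408 ± 61.4, SD, n = 3) and NOTCH4 (7.66 and 8.46) were also left out of their classes. NOTCH3 held 43.0%, 46.2% and 45.0% of the receptor sum in the DMSO libraries and 41.3%, 39.9% and 39.0% in the YK-4-279 libraries. NOTCH2 held 35.1%, 31.3% and 32.6% with DMSO and 37.1%, 38.1% and 39.1% with YK-4-279. For both shares the groups did not overlap, while the share of NOTCH1 (22.2% ± 0.337 and 21.8% ± 0.175, SD, n = 3) overlapped. The receptor sum was 2052 ± 41.6 per kilobase with DMSO and 1917 ± 65.3 with YK-4-279, without overlap. Among the ligands the share of JAG2 was 46.1% ± 1.90 with DMSO and 42.8% ± 1.66 with YK-4-279, without overlap. The sum of JAG1, JAG2 and DLL1 was 470 ± 36.5 with DMSO and 413 ± 9.33 with YK-4-279, also without overlap. Among the HES and HEY genes the share of HEYL was 46.0% ± 5.84 with DMSO and 38.8% ± 1.34 with YK-4-279, and that of HES6 was 43.8% ± 7.21 and 51.9% ± 1.40, both without overlap, while the sums overlapped (2282 ± 284 and 2266 ± 122). Both DMSO values rest in part on DMSO replicate 1, where the share of HEYL was 52.7%, against 43.0% and 42.3% in the other two, and that of HES6 was 35.5%, against 48.1% and 48.0%. The shares and sums are given as a description with no test. A two-sided exact permutation test of 3 libraries against 3 cannot go below p = 0.1.

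**Figure D3:**
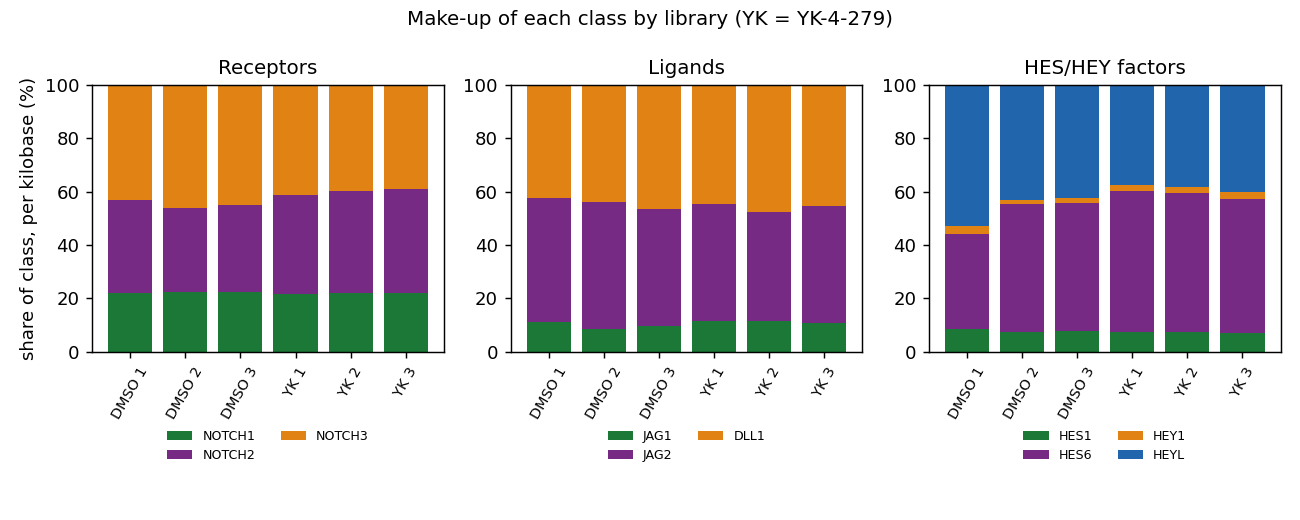
Share of each gene in the summed level per kilobase of its class, in percent, for the 6 libraries (stacked bars adding to 100%). Only the 10 genes are included, so NOTCH4, DLL3, DLL4 and HES4 are left out. The NOTCH3 segment is smaller and the NOTCH2 segment larger in each YK-4-279 library than in each DMSO library. HES6 with HEYL make up most of the sum of HES1, HES6, HEY1 and HEYL throughout.

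A list of 67 other genes of the pathway was read by role. Of these, 60 were tested, 30 were higher and 30 lower with YK-4-279, and 3 passed the test, all lower (5%, beside 3.41% of all genes). The median log2 difference over the 60 was -0.0026. GXYLT1, which adds xylose to the sugar chains on the receptor, had 3199, 2889 and 2932 normalized counts with DMSO and 2248, 2420 and 2375 with YK-4-279, and fell by 21.9% (log2 change -0.36, SE 0.06, limma adjusted p = 0.0103). NEURL1B, a ubiquitin ligase acting on ligands for their uptake, had 2087, 2059 and 2036 and then 1724, 1642 and 1530, and fell by 20.8% (-0.34, SE 0.06, adjusted p = 0.0126). NCSTN, encoding nicastrin of the γ-secretase complex, had 1956, 1858 and 1734 and then 1500, 1496 and 1568, and fell by 17.7% (-0.28, SE 0.07, adjusted p = 0.0358). None of these 3 genes had overlapping groups, and all 3 also passed the test without DMSO replicate 1, with edgeR and with DESeq2. NCSTN lost its call with the replicate number as a block (adjusted p = 0.0983) and with quantile normalization (0.0862), and all 3 lost it with eBayes without trend (0.109 to 0.150). Leaving out any one YK-4-279 library left 0 of the 60 called by limma, with 6 to 10 at an unadjusted p under 0.05. Of all genes, 0.137% to 0.331% were called in these fits and 11.7% to 13.7% had an unadjusted p under 0.05, so the pathway counts were near the background. In these 3 fits the log2 change of GXYLT1 was -0.38 to -0.33, that of NEURL1B -0.38 to -0.29 and that of NCSTN -0.30 to -0.27.

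By role, 1 of 9 tested sugar transferases of the receptor, 1 of 6 genes of ligand ubiquitination and endocytosis and 1 of 9 receptor proteases passed the test. None of the 4 other ligands and receptors, 2 other HES and HEY factors, 9 genes of the nuclear complex and its coactivators, 12 corepressors and 9 inhibitors did so by limma. In these same groups 1, 1, 3, 1 and 0 genes had an unadjusted p under 0.05, beside 18.7% of all genes. The most abundant gene of each role other than the corepressors gave a log2 difference of -0.12 for the Delta-like protein DLK2, -0.31 for HES4, -0.11 for POFUT1, which adds fucose to the receptor, and 0.15 for EPN1, an endocytic adaptor. It was -0.12 for the receptor protease ADAM10, 0.05 for the coactivator CREBBP and -0.04 for DTX3, of the Deltex family. Their limma adjusted p lay between 0.214 (HES4) and 0.802 (DTX3). When DMSO replicate 1 was left out, HES4 (-0.44, adjusted p = 5.0e-04) and DTX3 (-0.15, adjusted p = 0.0138) were called, while EPN1 was at 0.0060 (adjusted p = 0.954) and ADAM10 at -0.04 (adjusted p = 0.549). In that fit 10 of 59 pathway genes tested were called (16.9%, beside 13.1% of all genes), 8 lower and 2 higher. HES2, HES5, HELT and DTX1 were listed at 0 in every library, and DLK1, HES3 and HEY2 were under the filter on low values.

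**Figure D4:**
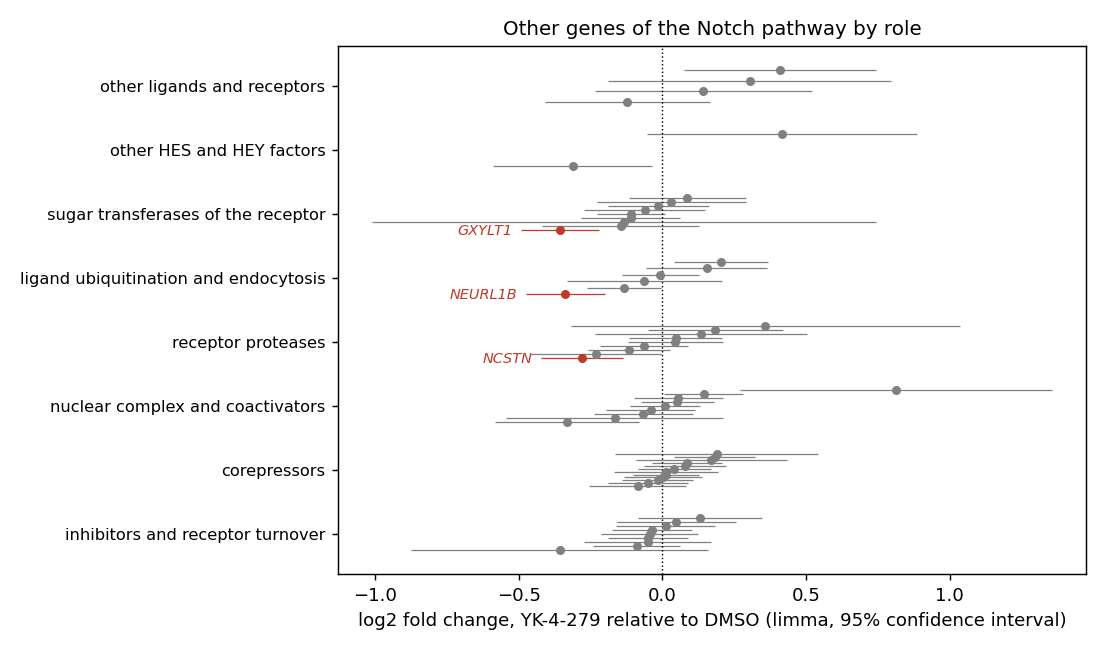
Log2 fold change with YK-4-279 relative to DMSO and 95% confidence interval (limma) of the 60 tested genes of the pathway list, 1 point each, grouped by role. The 3 genes in red passed the test and lie below 0, and the other 57 are spread on both sides of it.

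The genes whose pattern over the 6 libraries was closest to HEYL, by the root mean square difference of log2 values centred per gene, were CCDC3 (0.0171), NSD2 (0.0289) and PPIF (0.0297), out of 10698 genes with a mean of at least 100. For NOTCH3 they were HOXA10 (0.0247), PHF19 (0.0256) and SCUBE1 (0.0267). NOTCH3 ranked 204 among the genes nearest to HEYL, and HEYL ranked 62 among those nearest to NOTCH3, at a difference of 0.0576.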

How the data were processed

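Polyadenylated RNA of 6 Rh30 libraries (3 DMSO, 3 YK-4-279) was sequenced as paired reads from a directional library. Per the study's methods and the submitters' processing notes, reads were trimmed with BBDuk, aligned to hg38 and counted per gene with STAR 2.7.9a, and analysed with DESeq2 1.44.0. The deposited values are a signal, the counts per gene divided by a size factor of the library, and all of them came out as whole reads (tolerance 0.01 of a read). Of 35269 rows, 1 without a gene name was left out (at most 2.58e-05% of reads). The 10 members, the pathway list and the markers were chosen with earlier results of these data known. Differences were tested two-sided with limma 3.58.1 (eBayes with trend, R 4.3.3) on log2(value + 1) for 13930 genes, those whose mean over the libraries reached 10. Fold changes on this scale understate those of low genes. Recovered reads were also tested with edgeR 4.0.16 and DESeq2 1.42.0. The scripts were tested on simulated data. Named genes were all members, the most abundant gene and up to 3 called genes of each pathway role, and the 3 genes nearest to each called member, except that 1 gene is not reported here. The depth of 16724650 to 24677433 reads gave each member at least 97 reads per library, and intervals cover the spread between libraries. Gene positions and transcript lengths are from GENCODE (hg38).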

Additional observations from a re-analysis of the deposited data

How the results depend on the processing

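Apart from the fits that leave out a library, the fall of NOTCH3 missed the threshold at a log2 change of -0.26 (no filter on low values, eBayes without trend, replicate block), -0.24 (TMM scaling, edgeR) or -0.20 (quantile normalization). HEYL missed it at -0.24 (eBayes without trend, replicate block) and -0.17 (quantile normalization). JAG2 passed it at -0.28 with DESeq2. With the trend on GC content and transcript length removed from each library (98.4% of genes had both), NOTCH1 (-0.21), JAG2 (-0.35) and DLL1 (-0.18) passed as well, 5 members were called, all lower, their median was -0.17, and 7 of 60 pathway genes were called (11.7%, beside 12.2% of all genes). With edgeR without DMSO replicate 1, chosen after seeing the data, NOTCH1 (-0.14), JAG2 (-0.33) and DLL1 (-0.20) passed as lower and NOTCH2 (0.15) as higher, HEY1 turned to 0.11, and 6 members and 13 of 59 pathway genes were called (22%), beside 1809 of all genes (13%). The count of members called was 1 with no filter, TMM or edgeR (beside 2.04%, 3.02% and 3.34% of all genes), and 0 with quantile normalization, eBayes without trend or the replicate block (beside 1.99%, 0.237% and 1.29%, with 4, 3 and 3 members at an unadjusted limma p under 0.05, beside 17%, 16.1% and 15.6% of all genes). DESeq2 called 3, beside 2.8% of all genes. That share is over 22429 genes, and DESeq2 gave no adjusted p for 9132 genes, so it understates the share among genes with one. Of the pathway genes, 0 were called by eBayes without trend (10 unadjusted, near the 16.1% of all genes) and 3 by edgeR and by DESeq2 (5% and 4.76% of those tested). The DESeq2 share counts DLK1, HES3, HEY2 and MFNG, which had no adjusted p. The cause was not tested.

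Leaving out each library in turn gave a log2 change of -0.15 to -0.10 for NOTCH1, 0.080 to 0.14 for NOTCH2, -0.31 to -0.21 for NOTCH3, 0.0021 to 0.076 for JAG1, -0.34 to -0.21 for JAG2, -0.22 to -0.075 for DLL1, -0.18 to -0.066 for HES1, 0.0026 to 0.40 for HES6, -0.15 to 0.10 for HEY1 and -0.26 to -0.22 for HEYL. HEY1 was reversed at 0.10 without DMSO replicate 1 and at 0.02 without YK-4-279 replicate 1. The members called numbered 0 to 6, the pathway genes 0 to 10 and all genes 19 to 1827, and the members' median was -0.17 to -0.092. Of the other settings, those that moved the count of all genes by over 1.5 times from 475 (176 higher, 299 lower) gave 277 (quantile, 132 higher and 145 lower), 33 (no trend, 30 higher and 3 lower), 180 (block, 79 and 101), 1675 (GC and length trend removed, 580 and 1095) and 1809 (edgeR without DMSO replicate 1, 741 and 1068). Same-numbered libraries did not deviate together (correlations of -0.098, -0.027 and -0.027), so the replicate numbers were not taken as pairs.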
